A study of Mus musculus with 10 samples.

Results

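The genes followed here encode the TATA-binding protein, its paralogs, the factors TFIIA and TFIIB that bind it on promoters, and 4 subunits of TFIID, the large complex that carries it. They were chosen by name as 10 genes: Tbp, Tbpl1, Tbpl2, Gtf2a1, Gtf2a2, Gtf2b, Taf3, Taf4, Taf4b and Taf7. By the platform annotation 9 of them are among the 18193 genes with a probe set of a single gene on the array, with 18 probe sets in all, and Tbpl2 is named only. The probe set with the highest mean over all 10 samples stands for its gene, and the dimmer ones are given beside it.

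The samples were fully grown mouse oocytes, arrested at the germinal vesicle stage. The 6 RNAi-transgenic samples came from mice with a transgene that lowers basonuclin (Bnc1) mRNA by RNA interference in oocytes only, and the 4 non-transgenic samples from mice without it. Each sample was the RNA of about 50 oocytes of 1 mouse on 1 array. The labels give no age, strain, transgene promoter or founder line, nor whether the mice were littermates. Samples are named by the replicate numbers of their labels, 4, 5, 6, 11, 12 and 13 for RNAi-transgenic and 1, 2, 7 and 8 for non-transgenic.

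Transcription by RNA polymerase II starts when a TATA-binding protein bends the promoter DNA, TFIIA holds it there, and TFIIB joins it to the polymerase. In most cells that protein is TBP within TFIID. Growing mouse oocytes are known to use the germline paralog TBPL2 with TFIIA in its place, and TBPL1 is known mainly for its role in sperm formation. TAF4B, a paralog of TAF4, is needed for the ovarian oocyte reserve. A fully grown oocyte makes little new RNA, so its mRNA pool is largely a store made during growth.

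Bnc1 separated the groups as labelled. Its probe set was at log2 3.85 ± 0.215 (SD, n = 6) in RNAi-transgenic and 11.57 ± 0.154 (SD, n = 4) in non-transgenic oocytes. With every RNAi-transgenic sample below log2 5, an intensity of 32 used here as the level a probe set had to exceed in at least 4 arrays to be tested, it was at least 95.1-fold lower (limma adjusted p = 2.65e-11). The arrays had median intensities of 17.5 to 20.1, and a sample correlated with the others of its group at a mean r of 0.980 to 0.990 over the tested genes, lowest for non-transgenic replicate 1. All 12 oocyte markers were tested, with a summed intensity of 174100 to 207500 in RNAi-transgenic and 175000 to 192100 in non-transgenic oocytes, and the 3 most abundant were Nlrp5, Oosp1 and Zp3. Granulosa and cumulus markers summed to 1715 to 2799 in RNAi-transgenic and 1769 to 1989 in non-transgenic oocytes over 14 genes, with Amh, Inhba, Nr5a1, Has2 and Ptgs2 below log2 5 in every sample. Most abundant of them were Nr5a2 (mean log2 9.87 in RNAi-transgenic and 9.94 in non-transgenic oocytes), Gja1 (8.56 and 8.01) and Gata4 (7.61 and 7.98). Blood and immune markers summed to 2812 to 4474 in RNAi-transgenic and 3414 to 4256 in non-transgenic oocytes over 9 genes, with Ptprc, Cd68, Lyz2, Hba-a1, Alas2 and Csf1r below log2 5 in every sample. Most abundant there were Srgn (10.71 in RNAi-transgenic and 11.27 in non-transgenic oocytes, limma adjusted p = 4.67e-04), H2-Aa (9.73 and 9.40, 0.627) and Laptm5 (9.61 and 8.54, 0.0217). Stroma and vessel markers summed to 798.7 to 1074 in RNAi-transgenic and 618.5 to 720.6 in non-transgenic oocytes over 12 genes, with Pecam1, Cdh5, Col1a2, Col3a1 and Pdgfra below log2 5 in every sample. These sums did not overlap (exact permutation p = 0.00476). Of 6 tested genes 4 were higher and 1 lower (limma), against 18.9% and 18.3% of all genes tested. Their most abundant were Col4a1 (7.80 in RNAi-transgenic and 7.86 in non-transgenic oocytes, limma adjusted p = 0.767), Col4a2 (7.925 and 6.79, 7.48e-05) and Postn (7.48 and 6.68, 0.00383). In the other marker lists, 2 of 8 tested granulosa and cumulus genes were higher and 0 lower. Of 3 tested blood and immune genes 1 was higher and 1 lower, and of the 12 oocyte markers 0 were higher and 1 lower. The part of other cells in the values below was not tested.

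In RNAi-transgenic oocytes the mRNA of TFIIB, of the TFIIA subunit gene Gtf2a2 and of Tbpl1 passed the test as higher. Those of Tbp and of the 4 TFIID subunits did not pass it in their brightest probe sets. Of these calls, only that of Gtf2b held with any 1 sample left out and with the RNA quality covariate given further on. All 9 measured genes passed the filter on low values, and with limma 3 of the 9 were higher and 0 lower. The counts were the same at an unadjusted p under 0.05, which 4869 of all 10590 genes tested met in either direction. At the adjusted threshold, taken in either direction, these are 33.3% of the genes, against 37.2% of all 10590 genes tested. By direction, 18.9% of all genes tested were higher and 18.3% lower. The share of these genes that changed is near that of all genes tested. The median change of the 9 genes was 0.07 on the log2 scale, against -0.03 for all genes tested. In such bulk samples, fewer cells of a type and less RNA per cell cannot be told apart.

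**Figure D1:**
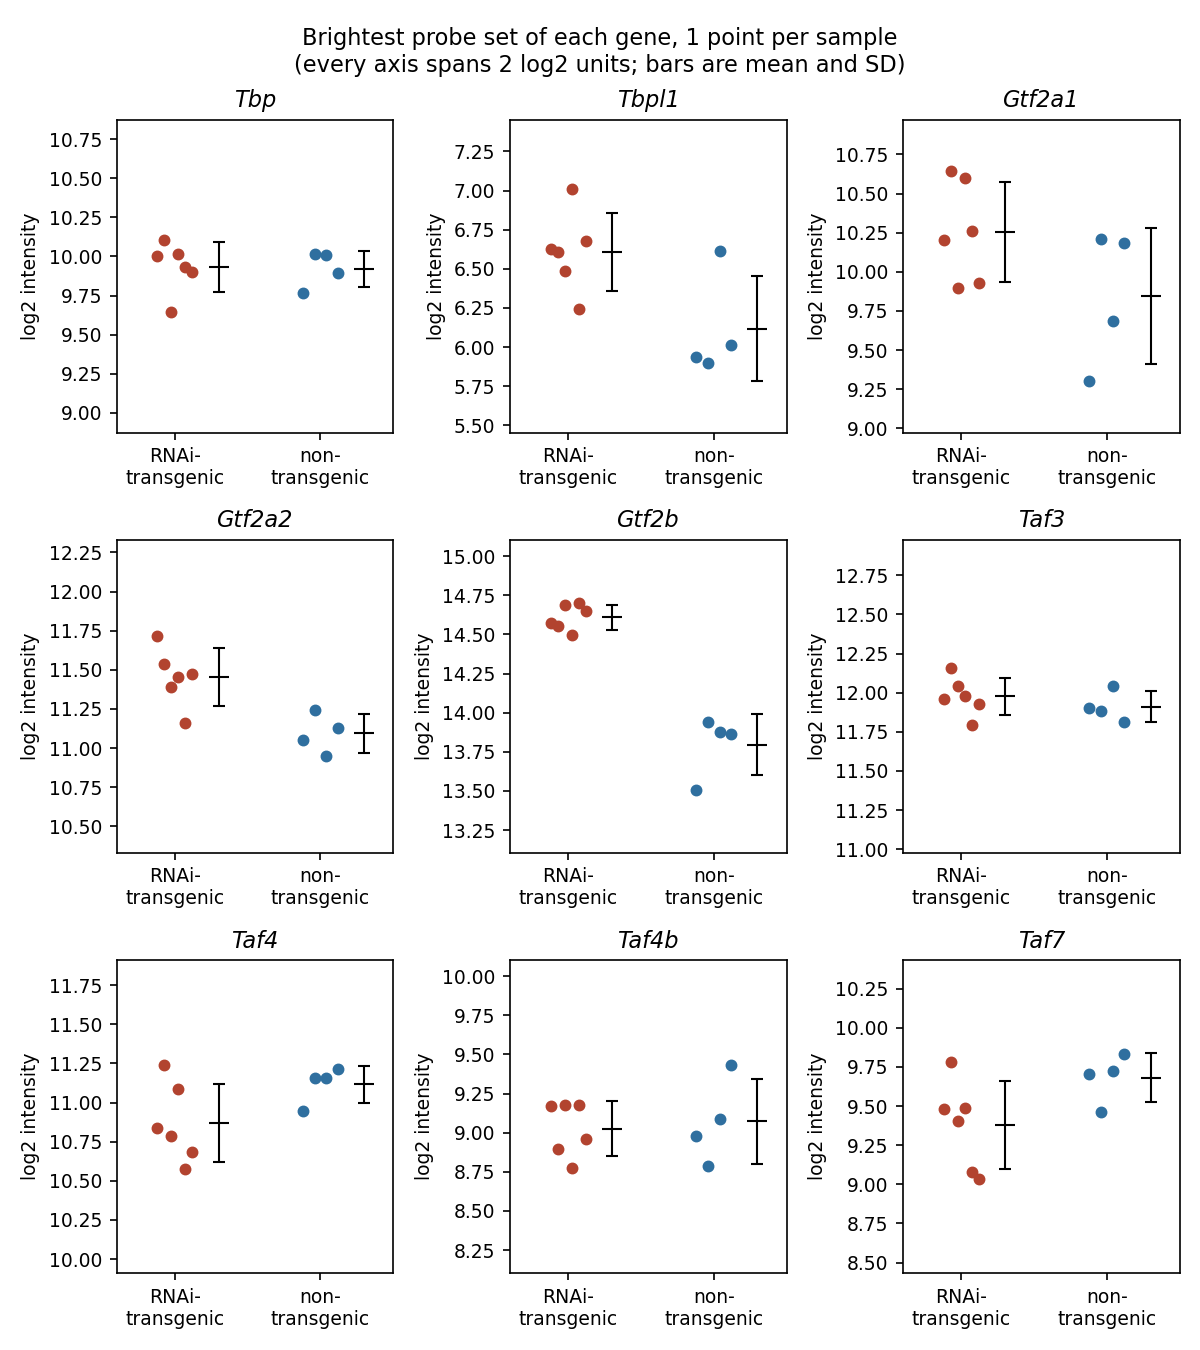
Log2 intensity of the brightest probe set of each of the 9 genes, with 1 point per sample, RNAi-transgenic (red) left of non-transgenic (blue), and the mean and SD as bars. Every vertical axis spans 2 log2 units; the Gtf2b groups are apart, at 14.50 to 14.70 in RNAi-transgenic and 13.51 to 13.94 in non-transgenic oocytes, while the Tbp groups lie over each other.

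Tbp, the TATA-binding protein gene itself, did not pass the test. Its brightest probe set had a log2 intensity of 9.64 at the lowest, 9.97 at the median and 10.11 at the highest in the 6 RNAi-transgenic samples, against 9.76, 10.01, 10.01 and 9.90 in non-transgenic replicates 1, 2, 7 and 8. The ranges overlapped almost wholly. The log2 change was 0.01 (95% interval -0.20 to 0.23, limma adjusted p = 0.932), an interval of 0.870 to 1.17-fold. Of all genes tested, 96.1% had a larger absolute change. A further Tbp probe set was below log2 5 in all samples, at 3.89 to 4.10 in RNAi-transgenic and 4.04 to 4.36 in non-transgenic oocytes, and was not tested.

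Tbpl1 encodes a TBP-like protein that does not bind the TATA box and drives a set of genes in late sperm formation in the mouse. Its mRNA was dim on these arrays. Its brightest probe set was at log2 6.24 at the lowest, 6.62 at the median and 7.01 at the highest in RNAi-transgenic oocytes, against 5.94, 5.90, 6.61 and 6.01 in non-transgenic replicates 1, 2, 7 and 8. Of the non-transgenic samples, replicate 7 lay among the RNAi-transgenic values and the other 3 below all of them. The log2 change was 0.49 (SE 0.17, 1.41-fold, 95% interval 0.12 to 0.87, limma adjusted p = 0.0404). Leaving out a single sample ended the call in 7 cases, RNAi-transgenic replicate 4, 5, 11 or 13 and non-transgenic replicate 1, 2 or 8, with an adjusted p of up to 0.112. It was also lost with no filter on low values (adjusted p = 0.0637) and after quantile normalization (0.0708). In the samples numbered 1 to 6 the change was 0.66 (adjusted p = 0.0176) and in those numbered 7 to 13 it was 0.33 (adjusted p = 0.458). The second Tbpl1 probe set, close to the filter level, was at 5.01 to 5.51 in RNAi-transgenic and 4.94 to 5.26 in non-transgenic oocytes and did not pass (0.12, adjusted p = 0.396 over all probe sets).

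Within each array, Tbpl1 minus Tbp was -3.32 ± 0.245 (SD, n = 6) log2 units in RNAi-transgenic and -3.80 ± 0.30 (SD, n = 4) in non-transgenic oocytes. The shift of 0.48 had an exact permutation p of 0.0286 (two-sided) and of 0.0571 adjusted over the 2 paralog pairs compared, which did not pass. It was 0.62 without non-transgenic replicate 7 (adjusted exact permutation p = 0.0238) and 0.11 with the second brightest probe set of Tbpl1 (adjusted exact permutation p = 0.676). In the samples numbered 1 to 6 it was 0.63 and in those numbered 7 to 13 it was 0.33, neither past the threshold. These differences compare probe sets of different sequence and do not give the amounts of Tbpl1 and Tbp mRNA relative to each other.

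TFIIA is made of a large precursor, cut into its alpha and beta chains and encoded by Gtf2a1, and of the small gamma chain, encoded by Gtf2a2. Gtf2a2 rose modestly. Its only probe set was at log2 11.16 at the lowest, 11.46 at the median and 11.71 at the highest in RNAi-transgenic oocytes, against 11.05, 11.24, 10.95 and 11.13 in non-transgenic replicates 1, 2, 7 and 8. Of the 6 RNAi-transgenic samples, 5 were above every non-transgenic sample and replicate 12 lay among them. The log2 change was 0.36 (SE 0.10, 1.28-fold, 95% interval 0.14 to 0.58, limma adjusted p = 0.0166). Without non-transgenic replicate 7 the adjusted p was 0.0533, just past the threshold. In the samples numbered 1 to 6 the change was 0.40 (adjusted p = 0.0976) and in those numbered 7 to 13 it was 0.32 (adjusted p = 0.142), and the call was also lost with an RNA quality covariate given further on.

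The probe sets of Gtf2a1 gave unlike answers. The brightest was at log2 9.90 at the lowest, 10.23 at the median and 10.65 at the highest in RNAi-transgenic oocytes, against 9.30, 10.21, 9.68 and 10.18 in non-transgenic replicates 1, 2, 7 and 8. It varied widely within both groups and did not pass (0.41, SE 0.21, limma adjusted p = 0.150). The change was 0.23 without non-transgenic replicate 1 (adjusted p = 0.401). The second was at 10.08 at the lowest, 10.23 at the median and 10.42 at the highest in RNAi-transgenic oocytes, against 9.11, 9.51, 9.72 and 9.54 in non-transgenic replicates 1, 2, 7 and 8. Here the groups did not overlap, as for 28.0% of all genes tested by their brightest probe sets (14.8% with RNAi-transgenic samples higher). The log2 change was 0.77 (SE 0.12, 1.70-fold, limma adjusted p = 5.82e-04 over all probe sets, 33.2% of which passed), with an adjusted p of at most 0.00215 when any 1 sample was left out. The third and dimmest was at 6.55 to 7.06 in RNAi-transgenic and 6.28 to 7.10 in non-transgenic oocytes and did not pass (0.18, adjusted p = 0.424). All 3 probe sets lay higher on average in RNAi-transgenic oocytes, and with their mean in place of the brightest Gtf2a1 passed (0.45, adjusted p = 0.0240). Which stretch of the transcript each probe set matches was not analysed here.

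**Figure D2:**
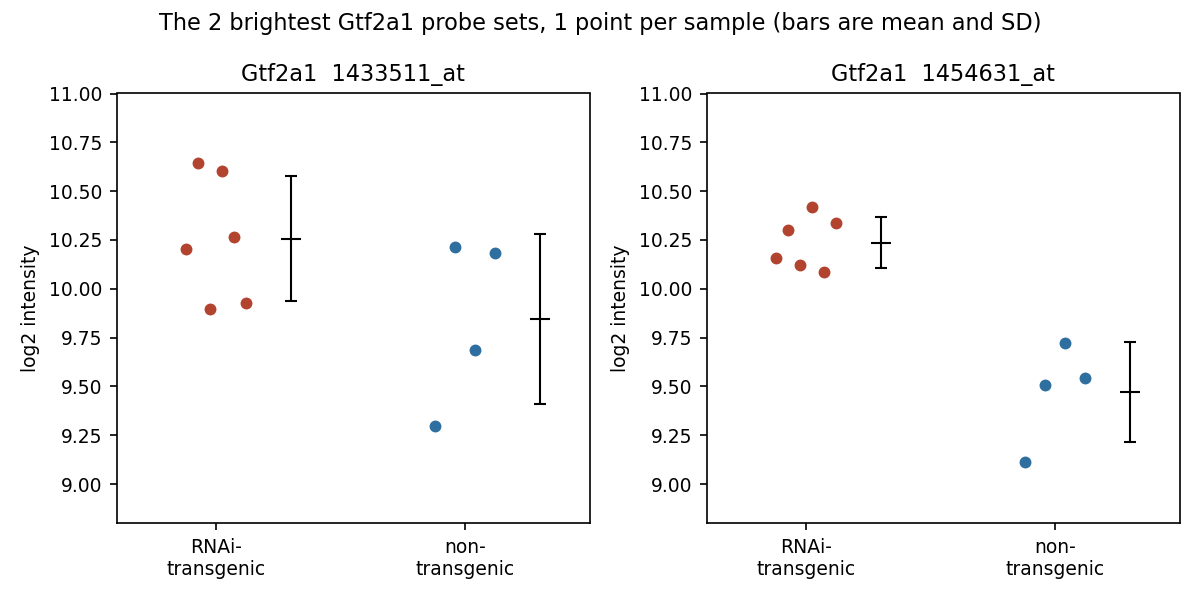
Log2 intensity of the 2 brightest probe sets of Gtf2a1, the brighter on the left, with 1 point per sample, RNAi-transgenic left of non-transgenic, and the mean and SD as bars. On the left the groups overlap; on the right the lowest RNAi-transgenic sample, at 10.08, is above the highest non-transgenic sample, at 9.72.

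Gtf2b showed the firmest change of the 9 genes. It encodes TFIIB, which reads the DNA beside the TATA box and sets where the polymerase begins. Its single probe set was bright, with a mean intensity of 25030 ± 1390 (SD, n = 6) in RNAi-transgenic and 14320 ± 1810 (SD, n = 4) in non-transgenic oocytes. On the log2 scale the RNAi-transgenic samples were at 14.50 at the lowest, 14.61 at the median and 14.70 at the highest, against 13.51, 13.94, 13.87 and 13.86 in non-transgenic replicates 1, 2, 7 and 8. The groups did not overlap, and the lowest non-transgenic sample, replicate 1, lay apart from the other 3. Non-overlapping groups with the RNAi-transgenic samples higher were found for 14.8% of all genes tested, and in either direction for 28.0%. The log2 change was 0.81 (SE 0.08, 1.76-fold, 95% interval 1.56 to 1.99-fold, limma adjusted p = 1.71e-05), and the exact permutation p was 0.00476, the smallest the design allows. The change was 0.88 in the samples numbered 1 to 6 and 0.75 in those numbered 7 to 13. With any 1 sample left out the adjusted p stayed at or below 8.66e-05. Of all genes tested, 3.59% had a lower adjusted p and 12.7% a larger absolute change.

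The genes whose pattern over the 10 samples was most like that of Gtf2b were Ndrg4, Dab2, an adaptor protein of endocytosis, and Fabp5, a fatty acid-binding protein. The measure was the root mean square difference of log2 values, each gene centred on its own mean, and came to 0.0797, 0.0799 and 0.0801 log2 units over 10589 other genes compared. Their log2 changes were 0.77, 0.82 and 0.84, which the choice by likeness over the same samples keeps close to that of Gtf2b.

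The upstream DNA of Tbpl1, Gtf2a2, Gtf2b and, as a gene that did not pass, Tbp is shown because these factors act at such stretches. Each line gives the 100 bases before the RefSeq start site, 5′ to 3′ on the gene's strand, from the GRCm38.p6 table of RefSeq, with capitals for matches to ATAAAA or GGGCGG on either strand.
Tbpl1: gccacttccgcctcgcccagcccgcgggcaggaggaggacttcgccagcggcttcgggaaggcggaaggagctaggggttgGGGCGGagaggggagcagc
Gtf2a2: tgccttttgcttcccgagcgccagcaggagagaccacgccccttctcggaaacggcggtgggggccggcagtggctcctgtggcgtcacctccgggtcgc
Gtf2b: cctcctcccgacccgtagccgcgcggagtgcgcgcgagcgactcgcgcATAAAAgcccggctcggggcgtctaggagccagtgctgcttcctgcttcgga
Tbp: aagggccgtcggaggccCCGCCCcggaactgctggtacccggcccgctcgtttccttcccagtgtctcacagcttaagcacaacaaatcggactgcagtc
They lie at chr10:22731448-22731547 on the minus strand (Tbpl1), chr9:70012448-70012547 on the plus strand (Gtf2a2), chr3:142765147-142765246 on the plus strand (Gtf2b) and chr17:15499788-15499887 on the plus strand (Tbp).

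None of these 4 windows holds TATAAA, the core letters of the TATA box, on either strand; 5.56% of the same windows of all 32851 promoters in the table hold it. The Gtf2b window holds ATAAAA, which shares 5 letters with it and overlaps it wherever TATAAAA stands, beginning at position -52 from the start site. The motif ATAAAA was chosen after the sequences were seen, and 7.07% of all windows hold it. The Tbp and Tbpl1 windows hold GGGCGG, the core of the GC box bound by SP1, as do 24.7% of all windows. A match of letters is a description of the window and not a bound site.

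The 4 TFIID subunit genes did not pass in their brightest probe sets. TAF3, a core-promoter subunit that reads a methylated histone tail, TAF4 and its paralog TAF4B, which scaffold the complex, and TAF7, which restrains the acetyltransferase activity of TAF1, are all bound in one complex. Taf3 was at log2 11.80 at the lowest, 11.97 at the median and 12.16 at the highest in RNAi-transgenic oocytes, against 11.91, 11.88, 12.04 and 11.81 in non-transgenic replicates 1, 2, 7 and 8 (0.07, 95% interval -0.10 to 0.23, limma adjusted p = 0.530). The groups overlapped wholly.

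Taf4 lay lower on average in RNAi-transgenic oocytes in both of its probe sets. The brighter was at log2 10.58 at the lowest, 10.81 at the median and 11.24 at the highest in RNAi-transgenic oocytes, against 10.95, 11.15, 11.16 and 11.21 in non-transgenic replicates 1, 2, 7 and 8. Of the 6 RNAi-transgenic samples 4 were below every non-transgenic sample and replicate 5 was above them all. The log2 change of -0.25 (SE 0.13) did not pass (limma adjusted p = 0.146), except without RNAi-transgenic replicate 5, where it was -0.32 (adjusted p = 0.0403). The dimmer probe set, at 8.27 to 8.77 in RNAi-transgenic and 8.68 to 9.05 in non-transgenic oocytes, changed by -0.31 with an adjusted p of 0.0589 over all probe sets. For the brighter one the change was -0.10 in the samples numbered 1 to 6 and -0.40 in those numbered 7 to 13.

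Taf4b was at log2 8.77 at the lowest, 9.06 at the median and 9.18 at the highest in RNAi-transgenic oocytes, against 8.98, 8.79, 9.09 and 9.43 in non-transgenic replicates 1, 2, 7 and 8. The change of -0.05 (95% interval -0.34 to 0.25, limma adjusted p = 0.820) was small beside the spread in both groups. A second probe set was at 8.40 to 9.06 in RNAi-transgenic and 8.78 to 9.68 in non-transgenic oocytes (-0.33, adjusted p = 0.184), and the dimmest was below log2 5 in every sample and not tested. The direction in the brightest probe set turned with the samples used, 0.20 in those numbered 1 to 6 and -0.29 in those numbered 7 to 13, neither past the threshold. Taf4b minus Taf4 within each array was -1.84 ± 0.39 (SD, n = 6) in RNAi-transgenic and -2.05 ± 0.25 (SD, n = 4) in non-transgenic oocytes, a shift of 0.20 with an exact permutation p of 0.376 (0.376 adjusted over the 2 pairs).

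The 3 probe sets of Taf7 pointed in opposite directions. The 2 brighter ones had nearly equal means, and the main one was at log2 9.03 at the lowest, 9.44 at the median and 9.78 at the highest in RNAi-transgenic oocytes, against 9.71, 9.46, 9.73 and 9.83 in non-transgenic replicates 1, 2, 7 and 8 (-0.30, SE 0.15, limma adjusted p = 0.127). It passed without RNAi-transgenic replicate 5 (-0.38, adjusted p = 0.0428), and its change was -0.03 in the samples numbered 1 to 6 and -0.58 in those numbered 7 to 13. The other bright one was at 8.89 to 9.61 in RNAi-transgenic and 9.47 to 10.05 in non-transgenic oocytes (-0.34, adjusted p = 0.112 over all probe sets). The dimmest, in contrast, was at 8.08 at the lowest, 8.21 at the median and 8.40 at the highest in RNAi-transgenic oocytes, against 7.65, 7.82, 8.14 and 7.74 in non-transgenic replicates 1, 2, 7 and 8. All but replicate 13 of the RNAi-transgenic samples were above every non-transgenic sample there, with a change of 0.38 (SE 0.11, adjusted p = 0.0203). That call was lost without non-transgenic replicate 8 (adjusted p = 0.0556).

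**Figure D3:**
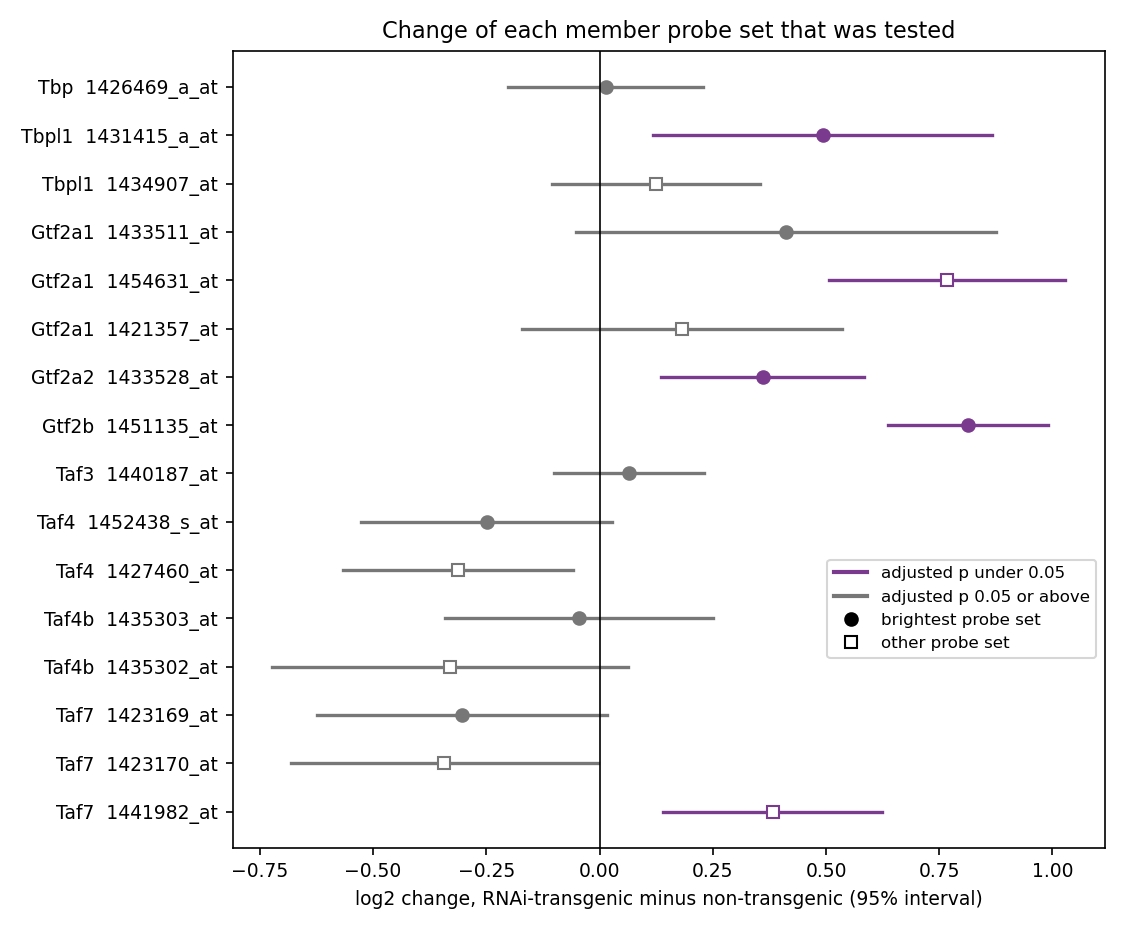
Log2 change, RNAi-transgenic minus non-transgenic, of the 16 probe sets that passed the filter, with its 95% interval; filled circles are the brightest probe set of a gene, open squares the others, and purple marks an adjusted p under 0.05 over all probe sets. The 5 purple intervals, of Tbpl1, Gtf2a1, Gtf2a2, Gtf2b and Taf7, all lie above 0. The point estimates of the 2 other Taf7 probe sets lie below 0, and neither probe set passed.

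Taken probe set by probe set, 5 of the 16 that passed the filter were higher in RNAi-transgenic oocytes and 0 lower with limma. Among all 18582 probe sets tested, 17.0% were higher and 16.2% lower at the same adjusted threshold. In either direction 33.2% of them passed, near the share of these 16. At an unadjusted p under 0.05 the 16 gave 5 higher and 2 lower. The share of all probe sets at that threshold was not counted, and 4869 of all 10590 genes tested met it. Without non-transgenic replicate 8 the count at the adjusted threshold was 3 higher and 0 lower. Without RNAi-transgenic replicate 5 it was 4 higher and 3 lower.

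The array carries Gapdh control probe sets that bear on RNA quality. The 3′ minus 5′ difference of these probe sets averaged 3.77 log2 units in RNAi-transgenic and 4.05 in non-transgenic oocytes (exact permutation p = 0.114), while the 3′ control itself averaged 9.30 in RNAi-transgenic and 10.05 in non-transgenic oocytes (exact permutation p = 0.00476). With the difference as a covariate only 1 of the 9 genes passed, Gtf2b at 0.79 (limma adjusted p = 3.33e-04). Calls over all 10590 genes tested fell as well, from 3940 to 3181. Gtf2a2 was then at 0.32 (adjusted p = 0.0892) and Tbpl1 at 0.48 (adjusted p = 0.127). The brightest Gtf2a1 probe set was at 0.23 (adjusted p = 0.544), and the part of RNA quality in these changes was not otherwise tested.

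Around these genes stand the other parts of the same machinery, listed as 61 genes in 5 lists, of which 53 were tested. Of these, 4 were higher and 15 lower in RNAi-transgenic oocytes (limma), that is 7.55% and 28.3%, against 18.9% and 18.3% of all genes tested. In either direction the share was 35.8%, near the 37.2% of all genes tested. The median log2 change over the 53 was -0.12. Without RNAi-transgenic replicate 13 the counts were 4 higher and 8 lower, and with each array centred on its median 5 higher and 9 lower. Over all genes tested 1998 were higher and 1942 lower as reported. Those counts became 1830 and 1668 without that sample, and 1984 and 1452 with the centring.

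Among 10 tested further TFIID subunits, 1 was higher and 4 lower, in either direction 50.0%, against 37.2% of all genes tested. Taf8, which helps bring TAF10 into the complex, fell to log2 7.84 ± 0.27 (SD, n = 6) in RNAi-transgenic oocytes, against 8.66 ± 0.11 (SD, n = 4) in non-transgenic oocytes, a change of -0.82 (SE 0.14, limma adjusted p = 9.24e-04). A dimmer Taf8 probe set changed by -0.90. Taf13, which pairs with TAF11, was at 12.18 ± 0.10 (SD, n = 6) in RNAi-transgenic and 11.92 ± 0.05 (SD, n = 4) in non-transgenic oocytes, a change of 0.26 (adjusted p = 0.00589). Both calls stood with any 1 sample left out. Those of Taf10 (-0.25, adjusted p = 0.0304) and Taf9b (-0.21, adjusted p = 0.0425) were lost when any 1 of 6 and of 9 single samples was left out. A dimmer Taf10 probe set, near the filter level, changed by -0.05 (adjusted p = 0.891). Taf7l, a germline paralog of Taf7, was below the filter level.

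TFIIE, TFIIF and TFIIH complete the start complex, and TFIIH opens the DNA. Among 13 tested genes of TFIIA, TFIIE, TFIIF and TFIIH, 1 was higher and 2 lower, with a median of 0.01. In either direction that is 23.1%, against 37.2% of all genes tested. Gtf2f2, the small subunit of TFIIF, changed by 0.35 (SE 0.09, limma adjusted p = 0.00946). Gtf2h1 and the helicase gene Ercc3, both of TFIIH, changed by -0.41 (adjusted p = 0.0303) and -0.30 (0.0368), with calls lost when any 1 of 5 and of 9 single samples was left out. Gtf2a1l, the germline form of the large TFIIA chain, was at log2 9.98 in RNAi-transgenic and 10.10 in non-transgenic oocytes and did not pass (-0.12, SE 0.42, adjusted p = 0.856).

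TBP also sits in complexes of RNA polymerases I and III and is held in check by other proteins. Among 10 such genes tested, 1 was higher and 2 lower, in either direction 30.0%, against 37.2% of all genes tested. Dr1, a subunit of the NC2 complex that blocks TFIIA and TFIIB from TBP, was at log2 7.89 at the lowest and 8.45 at the highest in RNAi-transgenic oocytes, against 7.41 to 7.91 in non-transgenic oocytes, a change of 0.52 (SE 0.14, limma adjusted p = 0.0151). The ranges met only at their ends. A dimmer Dr1 probe set changed by -0.02. Drap1, the NC2 partner of Dr1, did not pass (-0.16, adjusted p = 0.132). Taf1a of the polymerase I factor SL1 changed by -0.61 (adjusted p = 7.44e-05) and Taf1d, also of SL1, by -0.30 (adjusted p = 0.0381, lost when any 1 of 6 single samples was left out). The 2 dimmer Taf1d probe sets did not pass, at -0.18 (adjusted p = 0.189) and -0.10 (adjusted p = 0.616).

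SAGA is a coactivator that shares several TAFs with TFIID and can deliver TBP to promoters. Of its 10 tested genes 0 were higher and 4 lower (limma), against 18.9% and 18.3% of all genes. In either direction that is 40.0%, near the 37.2% of all genes tested. At an unadjusted p under 0.05, 1 was higher and 5 lower, a threshold that 4869 of all 10590 genes met in either direction. Supt20 fell most, to log2 10.54 ± 0.20 (SD, n = 6) in RNAi-transgenic oocytes, against 12.47 ± 0.25 (SD, n = 4) in non-transgenic oocytes, a change of -1.93 (SE 0.13, adjusted p = 7.60e-07). Its second probe set changed by -1.85, and its 2 dimmest, near the filter level, by -0.31 and -0.02. Sgf29, which reads a methylated histone tail for the complex, fell to 12.64 ± 0.22 (SD, n = 6), against 13.71 ± 0.02 (SD, n = 4) in non-transgenic oocytes, a change of -1.07 (adjusted p = 1.53e-05), and its further probe sets by -1.03 and -1.44. Taf6l, the TAF6 paralog of SAGA, changed by -0.73 (adjusted p = 0.0100). Kat2a, the acetyltransferase of the complex, did not pass (-0.13, adjusted p = 0.306).

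Of 10 tested subunits of RNA polymerase II itself, 1 was higher and 3 lower, in either direction 40.0%, against 37.2% of all genes tested. Polr2h changed by 0.74 (SE 0.15, limma adjusted p = 0.00240), Polr2j by -0.47 (SE 0.07, adjusted p = 2.14e-04) and Polr2e by -0.37 (adjusted p = 0.00705), and Polr2f by -0.25 (adjusted p = 0.0420), the last lost when any 1 of 7 single samples was left out. A dimmer Polr2f probe set, at log2 6.71 in both groups, changed by 0.0024 (adjusted p = 0.987). POLR2E, POLR2F and POLR2H are also subunits of polymerases I and III. Polr2b, the second largest subunit, was at log2 12.98 in RNAi-transgenic and 12.96 in non-transgenic oocytes and did not pass.

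**Figure D4:**
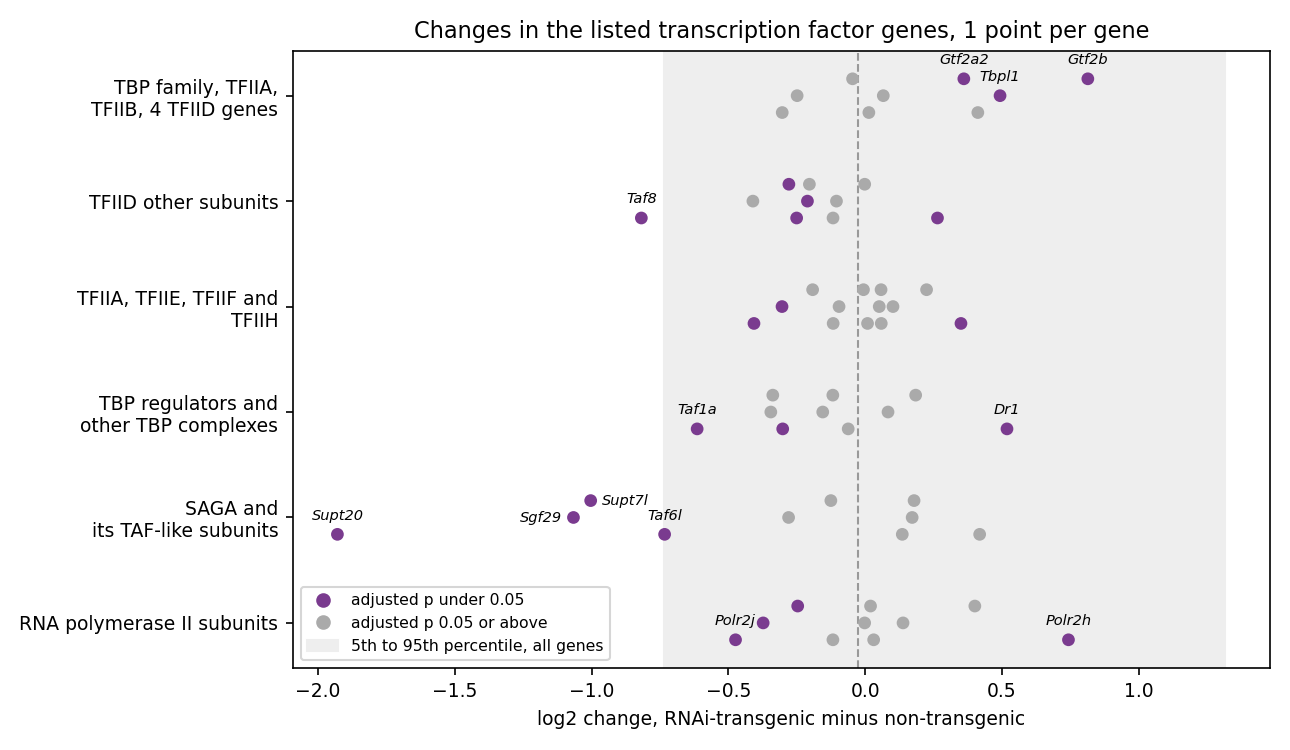
Log2 change, RNAi-transgenic minus non-transgenic, with 1 point per gene for the 9 genes (top row) and the 5 lists of related genes; purple marks an adjusted p under 0.05 over all genes tested, grey shading spans the 5th to the 95th percentile of all genes and the dashed line is their median. The 3 purple points of the top row lie right of 0, and the 4 of the SAGA row lie left of it, with Supt20 at -1.93.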

How the data were processed

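The authors deposited 1 intensity per probe set and array, on a linear scale and normalized between arrays, per the submitters' processing notes with GCRMA (its version is not given in these sources), which draws dim probe sets toward a floor. Depth has no counterpart on arrays, and their number, 6 and 4, limits the precision. Values were taken as log2 without a new normalization. Of 45101 probe sets, 64 controls were left out. Probe sets were named by the platform annotation, with symbols updated by gene number from the RefSeq table of GRCm38.p6; those with several genes (932) stay unnamed. A probe set was tested above log2 5 in at least 4 arrays (18582 probe sets, 10590 genes), and each gene was represented by the brightest mean log2 value. Groups were compared with limma 3.58.1 (lmFit, eBayes with a trend) in R 4.3.3, Benjamini-Hochberg adjusted over all genes or all probe sets, at a threshold of 0.05. Log2 changes are RNAi-transgenic minus non-transgenic. Exact permutation tests were two-sided over the 210 splits. The fit was tested on simulated data. The label numbers 1 to 6 and 7 to 13 are no stated batches and were used as a covariate and as subsets.

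The genes and lists were chosen with earlier results of these data known. Named are every probe set of the chosen genes, up to 3 higher and 3 lower genes per list by adjusted p, and the 3 genes nearest to Gtf2b. The 3 most abundant markers of each cell type list are named too. Single list genes that did not pass and the dimmer probe sets were added after their values were seen. The same search for Tbpl2, and its comparison with Tbp, were not made because it has no probe set by the annotation. Figures were drawn with matplotlib 3.10.9.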

Additional observations from a re-analysis of the deposited data

Results flagged for a closer look

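Of 68 groups of values tested for a sample far from the others, 4 had one, and chance gives about 1 in 20. Non-transgenic replicate 7 stood apart for Tbpl1, at log2 6.61 with the other 3 at 5.90 to 6.01, and for Taf9b, at 12.06 with the other 3 at 11.90 to 11.91. RNAi-transgenic replicate 6 stood apart for the second Taf7 probe set, at log2 8.89 with the other 5 at 9.37 to 9.61. Non-transgenic replicate 1 stood apart for Gtf2h1, at log2 10.42 with the other 3 at 10.08 to 10.11.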

How the results depend on the processing

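No paired analysis was possible because the groups share no replicate number. Of the 9 genes, 3 passed as reported, 1 with the Gapdh difference as a covariate, 1 in the samples numbered 7 to 13 alone, and 2 to 4 with each sample left out in turn (4 without RNAi-transgenic replicate 5, 2 higher and 2 lower). Their single probe sets gave 5 calls as reported and 3 to 7 with a sample left out. The 19 calls of the related lists became 7 in the samples numbered 1 to 6 and 7 in those numbered 7 to 13, and 12 to 16 with a sample left out. Over all genes the 3940 calls became 1913 and 2264 in those subsets, which hold fewer samples, and 3383 to 3772 with a sample left out. With the Gapdh difference as a covariate they became 3181.

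The Tbpl1 minus Tbp shift of 0.48 passed with the mean of each gene's probe sets (0.30, exact permutation p adjusted over the pairs 0.0476) and without non-transgenic replicate 7 or RNAi-transgenic replicate 12, with 0.38 to 0.62 over the samples left out. It did not pass with the second brightest probe set (0.11, adjusted p = 0.676) or in the samples numbered 1 to 6 (0.63) or 7 to 13 (0.33). The Taf4b minus Taf4 shift was 0.10 to 0.30 over them and reversed to -0.018 with the second brightest probe sets. Tbp, near 0, reversed to -0.13 with the Gapdh covariate, to -0.0024 in the samples numbered 7 to 13, and to -0.039, -0.00055, -0.021 and -0.0035 without non-transgenic replicate 1 and RNAi-transgenic replicates 4, 5 and 11, within -0.039 to 0.071 over the samples left out. Taf4b reversed to 0.15 with that covariate, to 0.20 in the samples numbered 1 to 6, and to 0.074 and 0.0044 without non-transgenic replicate 8 and RNAi-transgenic replicate 11, within -0.14 to 0.074 over the samples left out. Taf3 reversed to -0.028 in the samples numbered 7 to 13. None of these reversed values passed a test, and the cause was not tested.

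Leaving out the least typical sample of each group, choosing probe sets by linear intensity or taking the second brightest were alternatives chosen after seeing the data, as were all those for single probe sets other than the fit itself. Probe sets near log2 5, as for Tbpl1, lie close to the array background, which limits what their changes can show.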
